A study of Mus musculus with 8 samples.

Results

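Granzymes, other granule genes and NK-type receptors, 10 genes in all, were followed in regulatory T (Treg) cells of the mouse large intestine with and without Ahr. Nkg7 stood at 2.01 times and Gzma at 0.334 times the WT level in Ahr KO cells, and neither passed the test over all genes, though the authors' deposited table called Nkg7. Gzmb, Klrg1, Ctsw and Prf1 had estimated folds of 0.900 to 1.04. The genes were picked by name, with earlier results of these data known. They are the rows of the RNA-seq count table whose symbol is Gzma, Gzmb, Gzmk, Prf1, Nkg7, Ctsw, Klrg1, Klrd1, Klrk1 or Klrc1. All 10 were found among the 19191 rows. Total RNA of Treg cells sorted from the lamina propria of C57BL/6 mice was sequenced in 2 KO and 2 WT libraries. The KO genotype was Ahrf/- Foxp3Yfp-Cre and the WT genotype was Ahrf/+ Foxp3Yfp-Cre, so mice of both kinds carried 1 floxed Ahr allele and the Cre recombinase made from the Foxp3 locus. Cre acts in Foxp3-expressing cells, which leaves Treg cells of the WT group with 1 working copy of Ahr rather than 2, and the other cells of KO mice with 1 copy. Whether the libraries came from separate or pooled mice is not given, so each p-value reflects the spread of these libraries alone, part or all of which may be technical.

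Cytotoxic lymphocytes kill by releasing granules. Perforin opens pores in the target membrane and granzymes, a family of serine proteases, enter through them and cleave proteins in the target. NK cells steer this release with lectin-like receptors, some inhibitory and some activating, and T cells of barrier tissues make several of the same proteins. Treg cells are not named for killing, but in mice they can use granzyme B in suppression, and Klrg1 marks a differentiated subset that is common in the gut. Ahr, the aryl hydrocarbon receptor, is a transcription factor that binds small molecules from diet, microbes and pollutants.

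The total gene count per library was 30993483 and 53438828 in KO and 26862922 and 62402450 in WT, and replicate 2 was the deeper library of either genotype. Levels are given in CPM, counts scaled to 1000000 of the library's effective total, and a count of 0 allowed at most 0.0568 to 0.0978 CPM in KO and 0.0471 to 0.112 CPM in WT (3 counts per library, counting error only). Counts over the Ahr gene were 536 and 518 CPM in KO and 581 and 539 CPM in WT, and counts over a whole gene do not show a deleted part, so they do not check the labels. Ahrr, a repressor gene that Ahr induces, stood at 0.391 and 0.265 CPM in KO and 7.30 and 6.55 CPM in WT. The Treg label was checked against 6 markers. Their summed level was 6108 to 6611 CPM in KO and 5482 to 5928 CPM in WT. Ctla4 made up most of the sum, at 3773 and 3620 CPM in KO and 3196 and 3045 CPM in WT. Of the 6 markers 3 had both KO libraries above both WT libraries and 0 had them below, against 13.5% and 13.4% of all tested genes. Foxp3 itself had overlapping groups, at 250.1 and 259 CPM in KO and 280 and 252 CPM in WT.

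**Figure D1:**
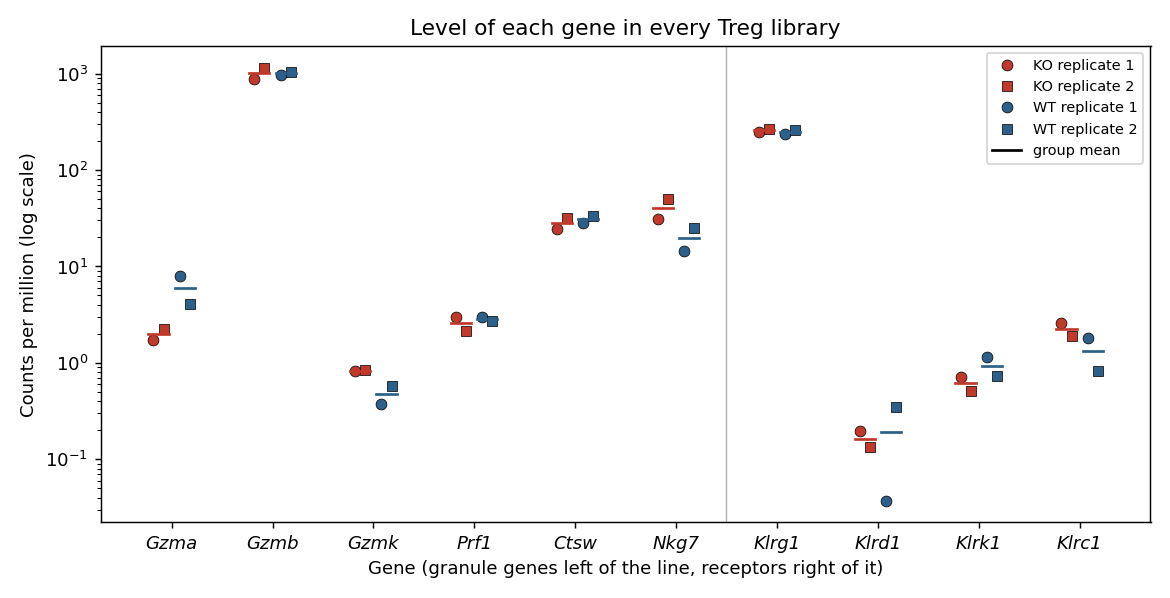
CPM of the 10 genes on a log axis, with a point per library, circles for replicate 1, squares for replicate 2 and a bar for each group mean. KO lies left of WT for each gene. Both KO points lie above both WT points for Gzmk, Nkg7 and Klrc1 and below them for Gzma and Klrk1. Levels are not per transcript length, so heights are not comparable between genes.

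Nkg7 encodes a membrane protein of cytotoxic granules that takes part in their release (chromosome 7, 50692443 to 50693616, plus strand, mm9). It stood at 31.0 and 49.7 CPM in KO and 14.4 and 25.4 CPM in WT, from 950 and 2628 counts in KO and 388 and 1615 counts in WT. Both KO libraries lay above both WT libraries, and in each genotype replicate 2 was the higher one. The mean was 40.3 ± 13.3 CPM in KO and 19.9 ± 7.72 CPM in WT (SD, n = 2 each). This is a log2 fold change of 1.01 ± 0.33 (standard error), a 2.01-fold level with a 95% interval of 1.13 to 3.59. In the authors' deposited table Nkg7 had an adjusted p of 0.00459, past the threshold of 0.05 used throughout. It did not pass edgeR's quasi-likelihood test over all genes tested (adjusted p = 1.00, unadjusted p = 0.0256) or DESeq2 (adjusted p = 0.208).

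Gzma encodes granzyme A, a protease that cleaves after basic residues (chromosome 13, 113884033 to 113891187, minus strand, mm9). It was low in every library, at 1.73 and 2.23 CPM in KO and 7.97 and 4.07 CPM in WT, which are 53 and 118 counts in KO and 214 and 259 counts in WT. Both KO libraries lay below both WT libraries, and WT replicate 1 stood highest. The log2 fold change was -1.58 ± 0.39, a level of 0.334 times that of WT with a 95% interval of 0.171 to 0.653. The adjusted p was 0.0632 in the authors' deposited table, 0.105 in DESeq2 and 1.00 in edgeR (unadjusted p = 0.00774). Gzma therefore missed the threshold in each of them.

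Among fits with genotype as the only term, the calls of both genes changed with the filter for low counts, and their sizes with single libraries. Without that filter edgeR called Nkg7 (adjusted p = 0.0409) and Gzma (adjusted p = 0.0309). Leaving out 1 library, the edgeR log2 fold change of Nkg7 was 1.30 without KO replicate 1, 0.63 without KO replicate 2, 0.67 without WT replicate 1 and 1.48 without WT replicate 2. DESeq2 called Nkg7 without KO replicate 1 (adjusted p = 0.0285) and without WT replicate 2 (adjusted p = 0.00266). The edgeR log2 fold change of Gzma was -1.43 without KO replicate 1, -1.78 without KO replicate 2, -1.03 without WT replicate 1 and -2.0 without WT replicate 2. The sign held in each of these fits.

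**Figure D2:**
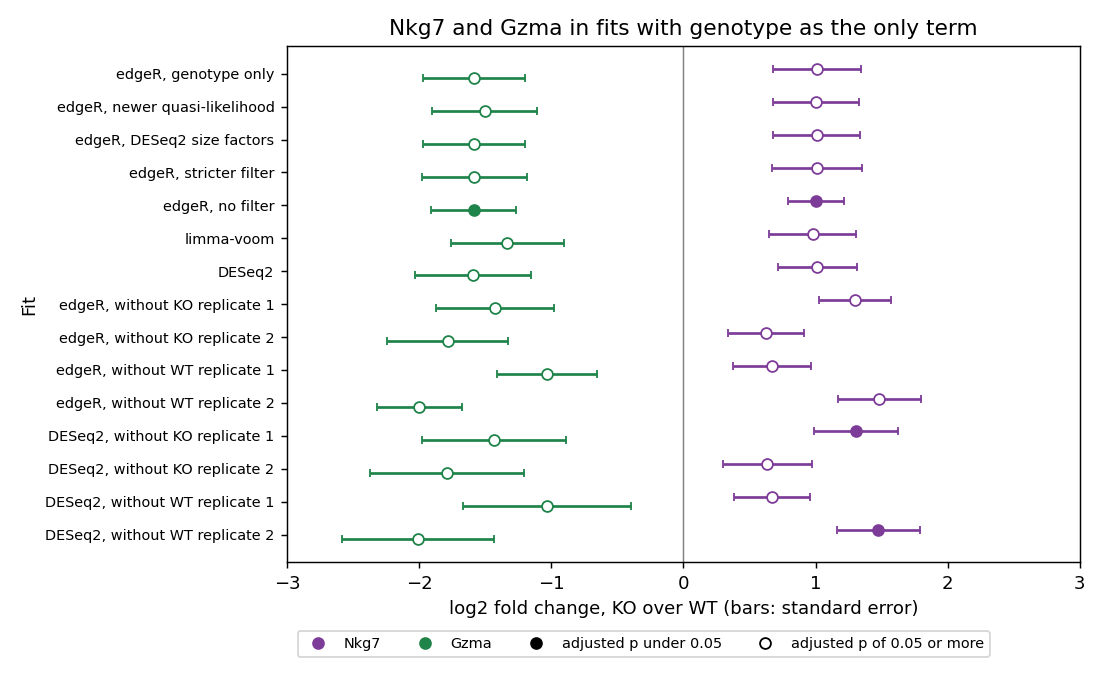
Log2 fold change of KO over WT with its standard error for Nkg7 and Gzma, with a line for each fit that has genotype as the only term and filled points where the adjusted p was under 0.05. All Nkg7 points lie right of 0 and all Gzma points left of it, and Nkg7 runs from 0.63 to 1.48 in the edgeR fits without 1 library.

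RefSeq promoter sequences (GRCm38.p6) were at hand for 7 of the 10 genes, and the 250 bases before the annotated start are printed for Nkg7 and Gzma, the genes with the largest differences, and for Gzmb, whose estimated fold was close to 1. They run 5′ to 3′ on the strand of the gene. Capitals mark GGTGTG, letters of the T-box motif that T-bet can bind, GCGTG, the core letters of the motif of Ahr, and TGTGGT, letters of the Runx motif. Each was searched on both strands.
Nkg7, chr7:43436888-43437137, plus strand: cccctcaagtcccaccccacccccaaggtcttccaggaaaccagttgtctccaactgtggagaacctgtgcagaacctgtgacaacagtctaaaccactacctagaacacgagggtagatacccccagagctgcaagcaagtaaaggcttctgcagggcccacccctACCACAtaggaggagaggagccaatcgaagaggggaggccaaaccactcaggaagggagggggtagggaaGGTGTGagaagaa
Gzma, chr13:113100982-113101231, minus strand: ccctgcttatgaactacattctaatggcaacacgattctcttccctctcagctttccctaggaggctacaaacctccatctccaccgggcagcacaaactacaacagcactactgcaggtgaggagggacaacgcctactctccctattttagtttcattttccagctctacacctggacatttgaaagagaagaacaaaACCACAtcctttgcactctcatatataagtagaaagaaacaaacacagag
Gzmb, chr14:56262335-56262584, minus strand: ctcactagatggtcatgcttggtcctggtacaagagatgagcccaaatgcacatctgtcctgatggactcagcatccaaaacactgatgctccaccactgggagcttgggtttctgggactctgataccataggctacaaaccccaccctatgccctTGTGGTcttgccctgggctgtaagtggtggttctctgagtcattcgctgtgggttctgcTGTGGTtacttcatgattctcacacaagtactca

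The T-box letters stood 13 bases before the start of Nkg7 and 75 bases before that of Gzmk, and in none of the other 5 windows. They were in 16.3% of the 32851 RefSeq promoter windows of the same length. The Gzmk start is that of RefSeq in GRCm38.p6. On the minus strand the counted spans of Gzma and Gzmk start at 113891187 and 114016116 in mm9. Their RefSeq windows reach down to 113100982 and 113180966 in GRCm38.p6, which lie closer together. The Gzmk span counted in mm9 thus appears to start farther upstream, and this window is not the one before its 5′ end. The Runx letters were found in 6 of the 7 windows, those of Gzma, Gzmb, Klrc1, Klrk1, Nkg7 and Prf1, against 14.0% of all windows. The Ahr core letters were found in 0 of the 7, against 28.2%. T-box and Runx letters can share bases, which did not occur in these windows. TTCNNNGAA, a motif of STAT5 that reads the same on both strands, was found only in the Nkg7 window among the 7, as TTCCAGGAA, against 7.02%. A match of letters is not a binding site, and its absence says only that the letters are not in this window.

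Of the other granzymes, Gzmb was the one with high counts. Gzmb, which encodes the protease that cleaves after aspartate and starts apoptosis, stood at 879 and 1158 CPM in KO and 968 and 1053 CPM in WT. The groups overlapped, with both WT libraries inside the range of KO. Its log2 fold change was 0.012 ± 0.15, with a 95% interval in folds from 0.774 to 1.31. Gzmk, a tryptase like granzyme A, stood at 0.815 and 0.851 CPM in KO and 0.372 and 0.581 CPM in WT, that is 25 and 45 counts in KO and 10 and 37 in WT. Both KO libraries were above both WT libraries, but the log2 fold change of 0.77 ± 0.48 had a 95% interval from -0.43 to 1.98. Gzma and Gzmk are neighbours on chromosome 13, on the same strand and 70.6 kb apart. In the table the Gzmk span holds Esm1 on the opposite strand, and since the use of strand is not given, reads of the pair cannot be told apart and the Gzmk value is uncertain. Gzmc, 24.2 kb from Gzmb on chromosome 14, stood at 4.43 and 2.71 CPM in KO and 5.06 and 1.77 CPM in WT, and Gzmm at 3.03 and 2.31 CPM in KO and 1.97 and 2.01 CPM in WT. Neither passed edgeR (adjusted p = 1.00 for both). Gzmd, Gzme, Gzmf, Gzmg and Gzmn were too low to be tested.

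Perforin and cathepsin W had overlapping groups. Prf1, the perforin gene, stood at 3.0 and 2.16 CPM in KO and 2.98 and 2.73 CPM in WT. Its log2 fold change was -0.15 ± 0.29, with a 95% interval in folds from 0.543 to 1.49. Ctsw, a protease gene of NK and CD8 T cells, stood at 24.3 and 32.0 CPM in KO and 28.4 and 33.2 CPM in WT. Its log2 fold change was -0.13 ± 0.17, with a 95% interval in folds from 0.683 to 1.22. Fibp ends 0.188 kb from Ctsw on the other strand, so reads at the border may be shared.

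Among the receptors, Klrg1 was the one with the narrowest interval. It encodes an inhibitory receptor that binds cadherins, and it stood at 249.8 and 269.6 CPM in KO and 239 and 263 CPM in WT. KO replicate 1 lay between the WT libraries. The log2 fold change was 0.050 ± 0.096, with a 95% interval in folds from 0.877 to 1.22.

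The other 3 receptors lie in the NK gene complex, where Klrd1, Klrk1, Klrc3, Klrc2 and Klrc1 follow each other within 87.2 kb of chromosome 6. Klrd1 encodes CD94, the partner chain that the inhibitory receptor NKG2A, encoded by Klrc1, needs at the surface. Klrd1 had 6 and 7 counts in KO and 1 and 22 counts in WT and did not pass the filter on low counts. Over the summed counts, 13 in KO and 23 in WT, the ratio was 0.613 with an exact 95% interval of 0.285 to 1.26, which covers counting error only. The single count of WT replicate 1 lay below the floor of 3 counts, and the WT libraries lay on either side of KO. Klrc1 stood at 2.61 and 1.89 CPM in KO and 1.82 and 0.817 CPM in WT. Both KO libraries were above both WT libraries, though KO replicate 2 and WT replicate 1 nearly met. The log2 fold change was 0.79 ± 0.48, with a 95% interval from -0.42 to 2.0.

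Klrc1 is close in sequence to its neighbours Klrc2 and Klrc3, and reads may have been split among the copies. Summed over the 3 genes the level was 3.91 and 2.91 CPM in KO and 2.64 and 1.21 CPM in WT, and the log2 fold change of the sum was 0.85 ± 0.44 (95% interval -0.26 to 1.96). The sum and Klrc1 alone thus had the same direction, and neither passed edgeR (adjusted p = 1.00 for both). Klrk1, the gene of the activating receptor NKG2D, stood at 0.717 and 0.511 CPM in KO and 1.15 and 0.722 CPM in WT, from 22 and 27 counts in KO and 31 and 46 counts in WT. Both KO libraries were below both WT libraries, and KO replicate 1 nearly reached WT replicate 2. Its log2 fold change was -0.60 ± 0.50, with a 95% interval from -1.85 to 0.64.

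**Figure D3:**
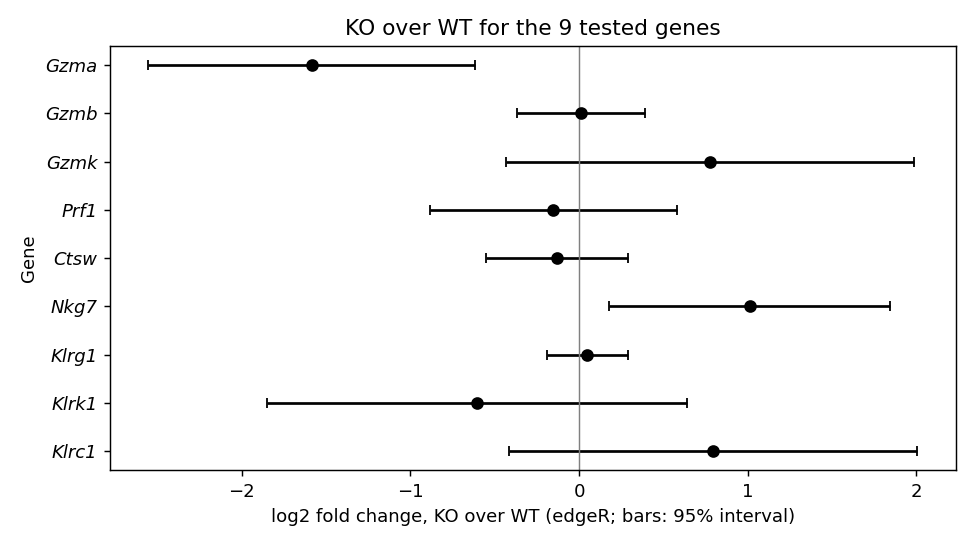
Log2 fold change of KO over WT for the 9 genes tested by edgeR, with 95% intervals. The intervals of Gzma (-2.55 to -0.61) and Nkg7 (0.18 to 1.84) leave out 0, before adjustment over all genes, and Klrg1 has the narrowest one.

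In fits with genotype as the only term, 9 of the 10 genes passed the filter on low counts. Of these, 0 were called by edgeR, where 0.0% of the 14274 genes tested were called. At an unadjusted p under 0.05 there were 2, Nkg7 and Gzma, where 2.85% of tested genes passed. Ahrr, at a log2 fold change of -4.42 ± 0.31, was not called by edgeR either (adjusted p = 0.218), while DESeq2 called it (adjusted p = 3.11e-18). The lack of a call by edgeR therefore does not show that a gene was unchanged. DESeq2 called 0 of the 10 (0.267% of its 17996 genes) and limma-voom 0 (0.0% of tested genes). The authors' deposited table called 1, Nkg7 (0.344% of its rows). Without the filter on low counts edgeR called 2 (0.273% of genes). Of the 9 tested genes 3 had both KO libraries above both WT libraries and 2 had them below, against 13.5% and 13.4% of all tested genes. The median log2 fold change was 0.012 over the 9 genes and 0.0074 over all tested genes.

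The genes that load and release granules were described as a list. Of 23 listed granule genes 18 were tested and 0 were called by edgeR, with 1 at an unadjusted p under 0.05, 0 by DESeq2 and 0 in the authors' deposited table. Their median log2 fold change was 0.077, with 11 values above 0 and 7 below. Over all genes the shares called were 0.0% by edgeR, 0.267% by DESeq2 and 0.344% in the authors' deposited table. At an unadjusted p under 0.05 in edgeR the share was 2.85%. The counts of the lists that follow are to be read beside the same shares. Srgn, the proteoglycan core that holds granzymes in the granule, stood at 1967 and 1798 CPM in KO and 1766 and 1603 CPM in WT (log2 fold change 0.16 ± 0.11). Stx11, a fusion protein of granule release, had 0.083 ± 0.22, Unc13d, which primes granules, -0.019 ± 0.14, and Lyst, which sorts lysosome-like vesicles, 0.21 ± 0.11. The gene with the unadjusted p under 0.05 was Fasl, the ligand that kills through the death receptor Fas, at 35.2 and 32.0 CPM in KO and 27.4 and 27.3 CPM in WT. It is named here after its values were seen.

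Of 29 other NK-type receptors 27 were found and 14 tested. Counts of calls were 0 with edgeR (1 at an unadjusted p under 0.05), 0 with DESeq2 and 0 in the authors' deposited table, and the median log2 fold change was -0.087. The most counted were Cd226, Cd96 and Tigit, which encode receptors that share ligands of the nectin family, and Slamf7. Cd96 stood at 86.5 and 75.9 CPM in KO and 122 and 112 CPM in WT, with both KO libraries below both WT libraries. Its log2 fold change was -0.52 ± 0.11 (edgeR unadjusted p = 0.00398, adjusted p = 1.00), with an adjusted p of 0.0723 in DESeq2 and 0.0564 in the authors' deposited table. Cd226, the activating one of the 3, had 0.032 ± 0.11, Tigit, which is inhibitory, -0.027 ± 0.23, and Slamf7 0.11 ± 0.20. Of the 9 Ly49 genes of the Klra family found, 1 (Klra2) passed the filter, at 0.978 and 0 CPM in KO and 1.15 and 0.408 CPM in WT. The others were near 0.

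Receptor signalling genes gave 11 tested of 12 listed, with 0 called by edgeR, 1 at an unadjusted p under 0.05, 0 by DESeq2 and 0 in the authors' deposited table, and a median log2 fold change of -0.043. Inpp5d, a lipid phosphatase of inhibitory receptors, had -0.023 ± 0.11, and Zap70, a kinase of the T cell receptor, 0.12 ± 0.081. Cd247 had 0.052 ± 0.086 and Vav1 -0.043 ± 0.15. Hcst, the gene of an adaptor of NKG2D, was expressed at 38.2 and 39.5 CPM in KO and 37.2 and 40.3 CPM in WT. Sh2d1b1, the gene at an unadjusted p under 0.05, had 4 and 3 counts in KO and 10 and 21 counts in WT.

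Ligands of these receptors could be read for 7 of 13 listed genes, and 6 were tested. Of them 0 were called by edgeR (0 at an unadjusted p under 0.05), 0 by DESeq2 and 0 in the authors' deposited table. The median log2 fold change was 0.19, with 6 values above 0 and 0 below. Both KO libraries lay above both WT libraries for 4 of the 6, against 13.5% of all tested genes, and below them for 0, against 13.4%. H2-T23, the Qa-1 molecule that NKG2A binds, stood at 352 and 355 CPM in KO and 304 and 346 CPM in WT (log2 fold change 0.12 ± 0.097), and B2m, its light chain, had 0.13 ± 0.11. H60b and Raet1d, ligands of NKG2D, had 0.042 ± 0.15 and 0.42 ± 0.42. Cdh1, the E-cadherin ligand of KLRG1 and an epithelial gene, stood at 0.847 and 1.51 CPM in KO and 0.261 and 0.628 CPM in WT, with a log2 fold change of 1.36 ± 0.60.

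Transcription factors of the cytotoxic program were tested in 13 of 14 cases. None was called by edgeR, with 1 at an unadjusted p under 0.05, and the median log2 fold change was 0.022. That gene was Tbx21, which encodes T-bet and which DESeq2 and the authors' deposited table called (adjusted p = 0.0337 and 0.0135). Tbx21 stood at 41.3 and 58.4 CPM in KO and 23.05 and 30.7 CPM in WT, a log2 fold change of 0.89 ± 0.22. As with Nkg7, replicate 2 was the higher library in each genotype and both KO libraries lay above both WT libraries. Eomes, the relative of T-bet in NK and CD8 T cells, stood at 1.40 and 1.42 CPM in KO and 1.71 and 1.22 CPM in WT. The most counted ones, Bhlhe40, Id2, Irf4 and Hopx, had 0.26 ± 0.19, 0.022 ± 0.10, -0.016 ± 0.10 and -0.038 ± 0.16. Of 12 further genes of the NK complex 7 were tested, with 0 called by edgeR (0 at an unadjusted p under 0.05), 0 by DESeq2 and 0 in the authors' deposited table, and a median of -0.091. Among these were Cd69, an activation marker, at -0.18 ± 0.10, and the lectin-like genes Clec2d (0.028 ± 0.11), Clec2i (0.050 ± 0.14) and Clec7a (-0.22 ± 0.57).

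**Figure D4:**
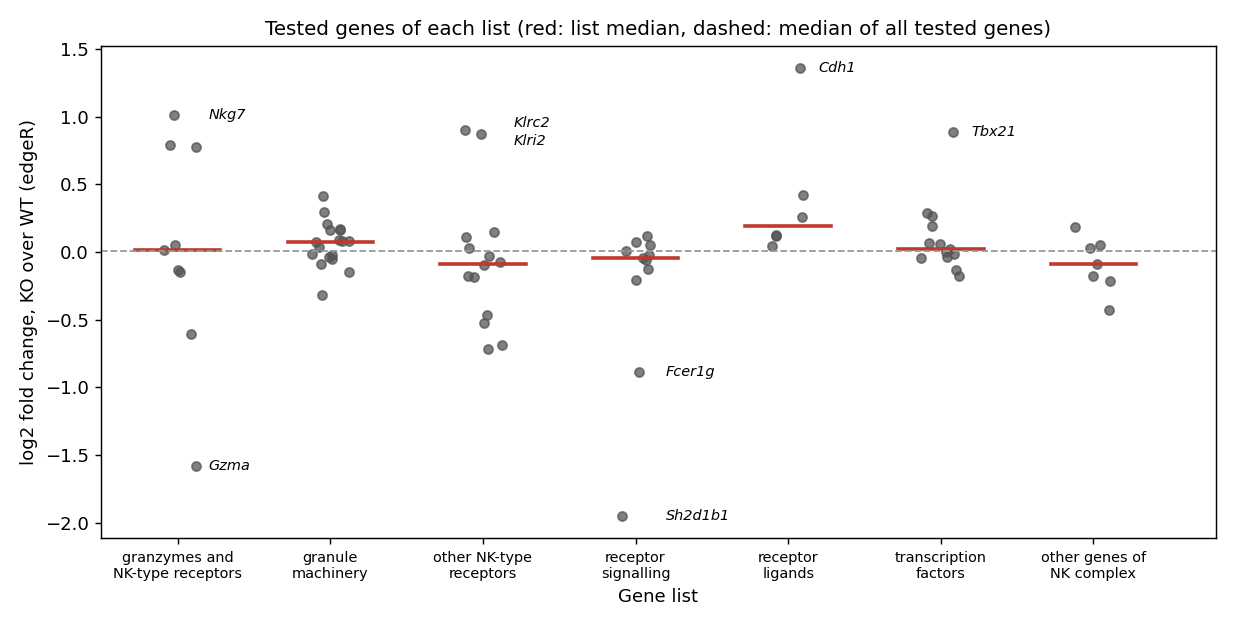
Log2 fold change of KO over WT for each tested gene of 7 gene lists, with the list median in red and the median of all tested genes dashed. The list medians lie between -0.091 and 0.19. Nkg7, Gzma, Tbx21, Cdh1 and Sh2d1b1 lie far from them, as do Klrc2 (0.90), Klri2 (0.87) and Fcer1g (-0.88).

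Other cells that make these transcripts were looked for in the same libraries. In bulk samples, fewer cells of a type and less RNA per cell cannot be told apart. The summed level of 8 NK markers was 11.9 to 14.8 CPM in KO and 12.6 to 17.7 CPM in WT. Their defining gene Ncr1 was at 0 in replicate 1 of both genotypes and at 0.170 CPM in KO replicate 2 and 0.0628 CPM in WT replicate 2. Klra4 and Klra8 were at 0 in all but KO replicate 2. The 5 tested NK markers went the other way, with log2 fold changes from -0.88 (Fcer1g) to -0.047 (Eomes) and overlapping groups. Itga2 was the largest part of the sum, at 6.42 and 7.09 CPM in KO and 6.74 and 7.30 CPM in WT. Klrb1c stood at 2.54 and 1.31 CPM in KO and 2.49 and 2.76 CPM in WT. The 2 CD8 T cell markers summed to 6.29 and 7.49 CPM in KO and 5.51 and 5.98 CPM in WT, beside 1175 to 1234 CPM of Cd4 in KO and 1043 to 1090 CPM in WT. The 2 gamma delta T cell markers found, Cd163l1 and Sox13, summed to 1.34 and 1.38 CPM in KO and 0.596 and 0.503 CPM in WT. Like Nkg7, the CD8 and gamma delta T cell sums were higher in both KO libraries, but not each gene in them was. Cd8b1 had overlapping groups, at 4.79 and 6.17 CPM in KO and 4.54 and 4.87 CPM in WT. Sox13 overlapped too, at 0 and 0.624 CPM in KO and 0.0745 and 0.0942 CPM in WT. The part of these markers in the Nkg7 result was not tested.

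Over 4 innate lymphoid markers (Il1rl1, Il23r, Kit and Ncr1) the summed level was 971 and 685 CPM in KO and 780 and 554 CPM in WT, and the list showed no single direction. Il1rl1, which gut Treg cells express too, made up most of the sum, at 947 and 670 CPM in KO and 740 and 527 CPM in WT (log2 fold change 0.35 ± 0.23), with overlapping groups. Il23r stood at 18.1 and 10.3 CPM in KO and 27.9 and 16.7 CPM in WT (-0.65 ± 0.35), also with overlapping groups. Kit, a receptor of innate lymphoid and mast cells, stood at 6.16 and 4.92 CPM in KO and 12.3 and 10.7 CPM in WT and was called lower by DESeq2 (adjusted p = 0.0294) and in the authors' deposited table (adjusted p = 0.00738). The part of this list in the Gzma result was not tested. Mast cell and basophil markers were at or near 0, with a sum of 0.246 to 0.326 CPM in KO and 0.149 to 0.817 CPM in WT over the 5 found and Fcer1a at 0 in all 4 libraries. Myeloid markers summed to 42.2 to 75.7 CPM in KO and 52.8 to 95.4 CPM in WT. B and plasma cell markers summed to 145 to 355 CPM in KO and 139 to 265 CPM in WT, mostly Igj. The 8 epithelial markers summed to 18.4 and 26.6 CPM in KO and 19.5 and 19.2 CPM in WT. They did not share a direction. Of the 7 tested, 4 had both KO libraries above both WT libraries (Krt8, Krt19, Cdh1 and Vil1), against 13.5% of all tested genes. Another 2 had both KO libraries below both WT libraries, against 13.4% of all tested genes. Those were Epcam, at 12.2 and 13.7 CPM in KO and 14.7 and 14.5 CPM in WT, and Krt18, at 1.43 and 1.53 CPM in KO and 2.01 and 2.26 CPM in WT. Krt8 stood at 1.01 and 3.86 CPM in KO and at 0 and 0.126 CPM in WT. DESeq2 called it higher in KO (adjusted p = 8.00e-04), and the authors' deposited table called it too (adjusted p = 5.35e-05). Krt19 stood at 0.554 and 2.44 CPM in KO and at 0.149 and 0 CPM in WT. It was called in the authors' deposited table (adjusted p = 4.46e-04) but not by DESeq2 (adjusted p = 0.138). The part of these markers in the Cdh1 and Nkg7 values was not tested.

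**Figure D5:**
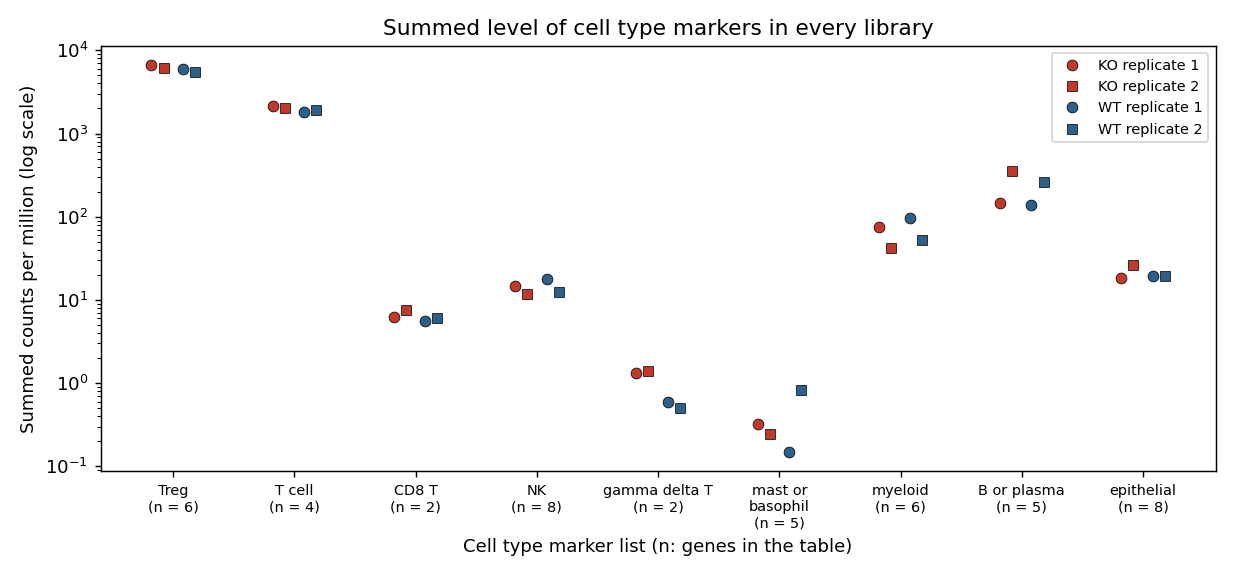
Summed CPM of cell type marker lists on a log axis, with a point per library and KO left of WT. The Treg markers lie between 5482 and 6611 CPM, and the NK markers between 11.9 and 17.7 CPM.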

How the data were processed

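RNA-seq libraries of 4 samples were used, while the series' 4 ATAC-seq samples are not analysed here. The deposited table gave unnormalized whole-number counts of each gene, matched to samples by title. TopHat2 and DESeq, without versions, and the build mm9 are named, per the submitters' processing notes, with counting tool, annotation and strand handling not given in the sources used here. An adjusted p-value for each gene was deposited in the table too, without its comparison, and was taken to be KO against WT.

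Genotype was tested alone with edgeR's quasi-likelihood F-test (edgeR 4.0.16, R 4.3.3) after filterByExpr, which kept 14274 of 19191 rows, and TMM scaling, with Benjamini-Hochberg adjustment over all tested genes at 0.05. DESeq2 1.42.0, limma-voom (limma 3.58.1), DESeq2 size factors, no low-count filter, a stricter one (2 or more libraries at 2 CPM or more), an adjusted p under 0.1, a replicate block, the newer quasi-likelihood method and leaving out each library were alternatives. The newer method and the DESeq2 fits that leave out a library were alternatives chosen after seeing the data. Values ± are standard errors unless named SD. The scripts were tested on simulated data.

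The genes and lists were chosen with earlier results of these data known. Text names all 10 genes and, per list, up to 4 tested genes of highest mean CPM and those called by a tool. Hcst, Cdh1, Eomes, Sh2d1b1, Fasl, the further granzymes and the markers were named beside that rule. Some listed symbols were not analysed here. The innate lymphoid marker list is reported in part.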

Additional observations from a re-analysis of the deposited data

How the results depend on the processing

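With 2 libraries a genotype, edgeR called 0 genes and 0 of the 10, also with DESeq2 size factors, the stricter filter, limma-voom, the newer quasi-likelihood method and an adjusted p under 0.1. The number of genes called was 48 with DESeq2, 52 without the filter and 458 (3.21% of tested genes) with the replicate number as a block. Of the 10, 2 were called without the filter and 2 with that block, Nkg7 and Gzma each time. Leaving out 1 library, edgeR called 0 to 2 genes and none of the 10. DESeq2 called 29 genes without KO replicate 1, 7 without KO replicate 2, 14 without WT replicate 1 and 22 without WT replicate 2, with Nkg7 as 1 of them in the first and last of these fits. Such a fit assumes that the lone library varies like the others.

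The labels do not say that the replicate number pairs mice. Libraries of the same number deviated together from their group means, with a correlation of 0.641 over genes. With the replicate block the log2 fold change was 1.03 ± 0.090 for Nkg7 (edgeR adjusted p = 6.93e-10) and -1.46 ± 0.24 for Gzma (edgeR adjusted p = 1.18e-04), with 1 residual degree of freedom. Of the pathway lists, the same block fit called Cd96 (edgeR adjusted p = 2.09e-06), Tbx21 (3.50e-09) and Zeb2 (0.00649).

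Values near 0 changed sign. Gzmb had -0.0013 with limma-voom and -0.00021 with the replicate block. Without 1 library, edgeR gave log2 fold changes from -0.20 to 0.19 for Gzmb, -0.41 to 0.073 for Prf1, -0.35 to 0.043 for Ctsw and -0.019 to 0.12 for Klrg1. DESeq2 turned Gzmb (-0.20 without KO replicate 2, -0.047 without WT replicate 1), Klrg1 (-0.0043 and -0.016 in the same fits), Prf1 (0.074 without KO replicate 2) and Ctsw (0.043 without KO replicate 1). The cause was not tested. Of 133 alternative values 113 kept their sign and side of the threshold, 14 changed sign and 6 passed it. Low counts limit what could be seen for Gzmk, Klrk1, Klrc1 and Klrd1.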
